A study of Mus musculus with 20 samples.

Results

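This account covers 10 genes of osteoblasts and of the mineral matrix of bone, chosen by name from the 25655 genes of the deposited tables: *Runx2*, *Sp7*, *Alpl*, *Phex*, *Bglap*, *Bglap2*, *Ibsp*, *Dmp1*, *Mepe* and *Spp1*. They were followed in RNA of the utricle, the gravity-sensing organ of the inner ear, of C57BL/6J female mice. All mice were operated on at 8 weeks of age and the utricles were taken 4 weeks later. The sham + v group had a sham operation and a vehicle pellet, the OVX + v group an ovariectomy and a vehicle pellet, the OVX + E2 group an ovariectomy and a pellet of 50 µg estradiol for 60 days, and the OVX + RAL group an ovariectomy and a pellet of 2.4 mg raloxifene, a selective estrogen receptor modulator, for 60 days. Each group had 5 libraries, made from 1 ng of total RNA by sequencing the 3′ ends of mRNA, and replicates are named here by their library numbers 1 to 20. The utricle was dissected through the oval window of the otic bulla, and the labels do not say whether each library came from 1 mouse. The p-values therefore refer to the spread between these libraries, which the fits estimate for each gene partly from all genes together.

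Bone is formed by osteoblasts, which secrete a matrix of type I collagen and then mineralize it. The transcription factor Runx2 commits cells to this lineage and Sp7 (osterix) acts after it. Alkaline phosphatase, encoded by *Alpl*, breaks down pyrophosphate, an inhibitor of mineral growth, and the matrix then takes up osteocalcin (*Bglap* and *Bglap2*) and a family of acidic, integrin-binding glycoproteins (*Spp1*, *Ibsp*, *Dmp1* and *Mepe*). The crystals of the utricle, the otoconia, are calcium carbonate on a protein core and not the calcium phosphate of bone. Osteopontin, the product of *Spp1*, is also made outside bone, and in the vestibular organs it is known as a marker of type I hair cells. Estrogen loss raises bone turnover, and the comparisons of each group with OVX + v ask whether the ovariectomy or the pellets moved these genes in the utricle.

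The osteocalcin genes are near-identical neighbours on the minus strand of chromosome 3, with *Bglap3* as the other copy, and all 3 lie within 15849 bases (chr3:88275923-88291771, GRCm39). Their sequences are shown because they decide how a 3′ read can be assigned. The last 120 coding bases, all in exon 4 of 4, follow with the bases that differ from *Bglap* in capitals (GRCm39, GENCODE annotation; *Bglap* chr3:88290942-88291061, *Bglap2* chr3:88285177-88285296, *Bglap3* chr3:88276063-88276182).
Bglap: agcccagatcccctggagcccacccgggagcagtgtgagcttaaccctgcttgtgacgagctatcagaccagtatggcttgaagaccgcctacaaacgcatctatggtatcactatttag
Bglap2: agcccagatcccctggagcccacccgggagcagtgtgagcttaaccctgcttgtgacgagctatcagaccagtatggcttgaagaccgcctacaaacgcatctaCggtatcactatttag
Bglap3: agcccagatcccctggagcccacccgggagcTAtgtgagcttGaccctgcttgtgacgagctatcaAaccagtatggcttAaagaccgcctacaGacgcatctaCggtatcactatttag
*Bglap2* differed from *Bglap* at 1 of these bases and *Bglap3* at 7, for identities of 99.2% and 94.2%. Of the 338 windows of 63 nucleotides in the last 400 nucleotides of the *Bglap* transcript, 266 (78.7%) occurred exactly in *Bglap2* and 41 (12.1%) in *Bglap3*. With up to 2 mismatches allowed, the shares were 100% and 64.5%. A count of *Bglap* or *Bglap2* alone is therefore uncertain, and the sum of the 3 genes is given beside them.

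The 4 glycoprotein genes are neighbours as well, on the plus strand of chromosome 5 within 238438 bases (chr5:104350479-104588916, GRCm39). Each encodes the integrin-binding triplet arginine-glycine-aspartate once in its coding sequence, and it is shown here as a feature common to all 4. The codons of the triplet are in capitals, within the 33 bases printed for each, at chr5:104360361-104360393 for *Dmp1*, chr5:104458329-104458361 for *Ibsp*, chr5:104485396-104485428 for *Mepe* and chr5:104587335-104587367 for *Spp1*.
Dmp1: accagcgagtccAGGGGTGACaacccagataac
Ibsp: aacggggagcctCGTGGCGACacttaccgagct
Mepe: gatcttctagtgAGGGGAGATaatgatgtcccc
Spp1: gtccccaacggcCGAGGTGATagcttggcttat
The triplet starts at codon 350 of 503 in *Dmp1*, codon 293 of 324 in *Ibsp*, codon 183 of 441 in *Mepe* and codon 144 of 294 in *Spp1*. The remaining members lie elsewhere, *Alpl* on chromosome 4, *Sp7* on chromosome 15, *Runx2* on chromosome 17 and *Phex* on chromosome X.

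Libraries held between 1123053 and 2081747 counts, so that 3 counts, the smallest number taken as detected, made between 1.44 and 2.67 CPM, the count scaled to the total of its library. The OVX + E2 libraries were the smallest, with a median of 1324047 counts against 1605308 in OVX + v, and they had 7427 to 9680 genes with a count against 10004 to 10694. All 10 hair cell markers had a count. They ran from *Pou4f3*, at a mean of 275.7 CPM in 20 of 20 libraries, to *Cdh23*, detected in 5 libraries (6.27 CPM), and *Atoh1*, in 1 (0.538 CPM). Of the 7 supporting cell and otolithic matrix markers, *Otog*, which encodes otogelin of the otoconial membrane, was highest, with a mean of 2508 CPM in 20 libraries, and *Oc90*, which encodes the main otoconial protein, lowest, with 4.88 CPM in 7.

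The 10 members were of very unequal level. Reads of a 3′ library come from the ends of transcripts, so CPM was compared between genes without correction for length. Several reads can come from 1 transcript, since there were no molecular identifiers. *Spp1* had a mean of 556 CPM ± 286 (SD, n = 20), ranked 199th of all genes, and was detected in 20 of 20 libraries. *Ibsp* followed with 54.6 CPM ± 53.1 in 16 libraries and *Bglap* with 34.5 CPM ± 28.7 in 15. No other member passed a mean of 10 CPM: *Alpl* had 8.65 CPM in 9 libraries, *Bglap2* 7.47 in 3, *Mepe* 6.58 in 6, *Phex* 5.43 in 5, *Runx2* 4.03 in 4, *Sp7* 2.70 in 4 and *Dmp1* 1.61 in 2. These 7 genes were near 0 in most libraries and clearly above it in a few, and a single library held 33.1% (*Alpl*) to 51.9% (*Dmp1*) of all counts of each. They had no count in 10 to 18 libraries (median 14). Over all 3349 genes with mean levels in their range, 1.61 to 8.65 CPM, the median was also 14 libraries. Gene by gene, against the median of genes close to each in mean level, the members differed. *Bglap2* had no count in 17 libraries against 11, *Mepe* in 14 against 12 and *Dmp1* in 18 against 17. *Runx2* had none in 10 against 15 and *Phex* in 11 against 13, while *Sp7* (16) and *Alpl* (10) equalled their medians. Of the more abundant members, *Bglap* had none in 5 against 2, *Ibsp* in 3 against 1 and *Spp1* in 0 against 0. The number of members detected per library ran from 9, in sham + v replicate 2, down to 1, in OVX + E2 replicate 14, where *Spp1* was the only member with any count.

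**Figure D1:**
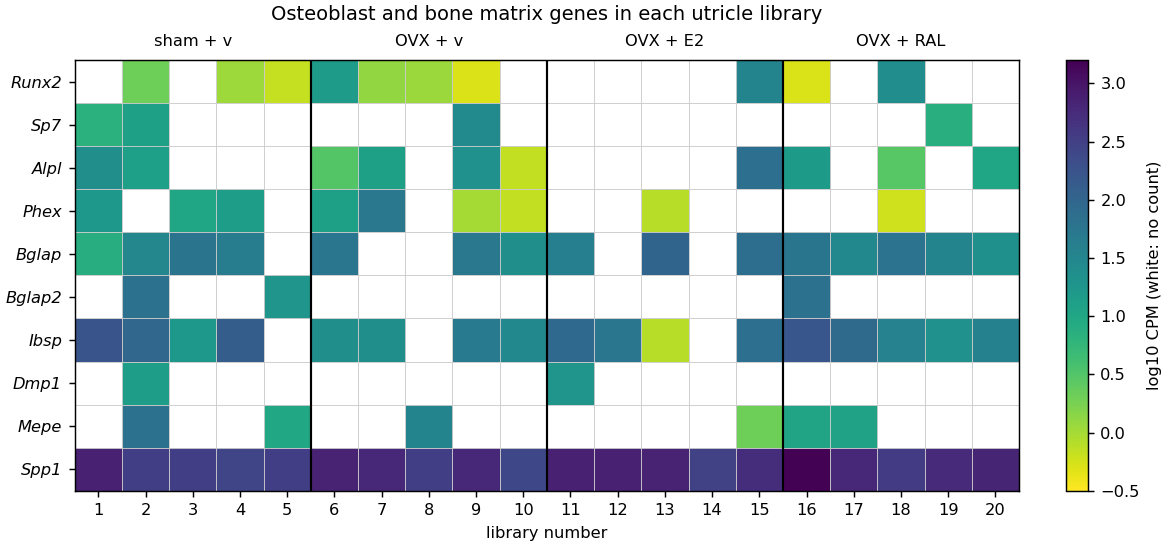
Level of the 10 genes (rows) in each of the 20 libraries (columns, in 4 groups of 5), as colour for log10 CPM, with white for libraries without a count. *Spp1* is filled in 20 libraries, *Bglap* in 15 *Ibsp* in 17 (1 of them with 1 count), *Runx2* and *Alpl* in 10 each, *Phex* in 9, *Mepe* in 6, *Sp7* in 4, *Bglap2* in 3 and *Dmp1* in 2.

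No member passed the threshold of an adjusted p of 0.05 in any of the 3 comparisons (edgeR quasi-likelihood test, Benjamini-Hochberg adjustment over all genes tested). Of all genes tested, 0.0145% passed it in sham + v against OVX + v, 0.0584% in OVX + E2 against OVX + v and 0.0286% in OVX + RAL against OVX + v. At an unadjusted p under 0.05, 3 of 10 members tested were found in the first comparison, 2 of 9 in the second and 3 of 9 in the third, beside 12.5%, 13.9% and 12.1% of all genes. DESeq2 gave 1 member at that unadjusted level in each comparison, of the 9, 5 and 6 for which it gave a p, beside 5.59%, 6.05% and 5.63% of all genes. With limma on log2(CPM + 1) there were 0, 0 and 2 members, beside 4.27%, 5.46% and 4.57% of all genes, and neither tool gave a member past the adjusted threshold. In no member did the 5 libraries of a group lie wholly above or below those of OVX + v, which was the case for 0.499%, 0.832% and 0.578% of all genes tested. The comparisons share the 5 OVX + v libraries. In a bulk sample, fewer cells of a type and less RNA per cell cannot be told apart.

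The lineage transcription factors were read in few libraries. *Runx2* had 0, 2.10, 0, 1.12 and 0.663 CPM in sham + v, 14.95, 1.255, 1.13, 0.495 and 0 in OVX + v, 0, 0, 0, 0 and 33.7 in OVX + E2, and 0.514, 0, 24.7, 0 and 0 in OVX + RAL. Each group thus had 1 library at 3 counts or more, and in the last 3 groups that library held most of the group's signal. The log2 fold change against OVX + v was -2.10 ± 2.95 (SE) in sham + v, 0.90 ± 2.82 in OVX + E2 and 0.49 ± 2.73 in OVX + RAL. Without OVX + v replicate 6 these values were 0.10, 3.08 and 2.69. Without OVX + E2 replicate 15 that group was at 0, at least 1.53-fold lower than OVX + v against the floor, and without OVX + RAL replicate 18 that group had 1 count against 29, a ratio of 0.0373 (95% exact interval 0.000912 to 0.225, counting error only).

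*Sp7*, which acts downstream of *Runx2*, had 6.82 and 12.6 CPM in sham + v replicates 1 and 2, 27.2 CPM in OVX + v replicate 9 and 7.34 CPM in OVX + RAL replicate 19, and no count in the other 16 libraries. All 5 OVX + E2 libraries were at 0 for *Sp7*, as were 4 of the 5 OVX + v libraries. Set against the floor of 3 counts per library, the mean of OVX + E2 was at least 2.38-fold lower than that of OVX + v (5.45 CPM ± 12.2, SD, n = 5), with an adjusted p of 0.351 by edgeR. All of the OVX + v signal was in replicate 9, so that without it both groups were at 0. The log2 fold changes in sham + v (-0.48 ± 2.84, SE) and OVX + RAL (-1.84 ± 2.91) rested on the same library, without which OVX + v was at 0.

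*Alpl*, the phosphatase of mineral onset, had 23.9, 13.1, 0, 0 and 0 CPM in sham + v, 3.11, 12.5, 0, 21.3 and 0.697 in OVX + v, 0, 0, 0, 0 and 69.4 in OVX + E2, and 15.4, 0, 2.94, 0 and 10.6 in OVX + RAL. The group means of 7.40, 7.53, 13.9 and 5.79 CPM each lay below their own SDs (10.8, 9.19, 31.1 and 6.91, n = 5). Log2 fold changes against OVX + v were -0.03 ± 2.52 (SE) in sham + v, 0.88 ± 2.41 in OVX + E2 and -0.38 ± 2.45 in OVX + RAL. The OVX + E2 value rested on replicate 15, which also held the only *Runx2* of that group, and without it the group was at 0, at least 3.23-fold lower than OVX + v. Without OVX + v replicate 9 the values were 0.85 in sham + v, 1.74 in OVX + E2 and 0.49 in OVX + RAL. Leaving out sham + v replicate 3, 4 or 5 or OVX + v replicate 7 also gave a positive sham + v value, of 0.29, 0.29, 0.29 and 0.23. Without sham + v replicate 1 the sham + v value was -1.18.

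*Phex* encodes an endopeptidase of osteoblasts and osteocytes whose loss causes phosphate wasting and poor mineralization. It had 17.05, 0, 10.7, 13.98 and 0 CPM in sham + v and 12.5, 51.4, 0, 0.991 and 0.697 in OVX + v. In OVX + E2 and in OVX + RAL a single count was found in 1 library each (0.802 and 0.587 CPM) and none in the other 4. Over the pooled libraries, 1 count in OVX + E2 stood against 105 in OVX + v, a ratio of 0.0121 (95% exact interval 0.000303 to 0.0689), and 1 count in OVX + RAL against the same 105, a ratio of 0.00845 (0.000212 to 0.0481). These intervals cover counting error only, and 82 of the 105 counts were in OVX + v replicate 7, without which the ratios were 0.0448 (0.00109 to 0.276) and 0.0313 (0.000759 to 0.193). With the spread between libraries in the fit, the unadjusted p was 0.0720 and 0.0400, and the adjusted p by edgeR 0.462 and 0.402. Over the alternatives that gave an adjusted p it ranged from 0.431 to 0.919 in OVX + E2 and from 0.369 to 0.924 in OVX + RAL. OVX + v, too, had 3 of its 5 libraries under 3 counts. The sham + v group differed from OVX + v by a log2 fold change of -0.65 ± 2.22 (SE), which was 1.22 without OVX + v replicate 7.

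*Bglap*, the main osteocalcin gene of the tables, had 7.79, 30.4, 59.3, 43.1 and 0 CPM in sham + v, 56.1, 0, 0, 52.5 and 23.0 in OVX + v, 40.5, 0, 101.0, 0 and 72.9 in OVX + E2, and 57.1, 29.6, 61.7, 33.6 and 22.1 in OVX + RAL. OVX + RAL was the only group with *Bglap* in 5 of 5 libraries, against 4, 3 and 3 in sham + v, OVX + v and OVX + E2, and where *Bglap* was detected the ranges of the groups overlapped. OVX + RAL also had the largest median library size, 1906110 counts, and the part of depth in detection was not tested. The mean of *Bglap* was 28.1 CPM ± 24.5 (SD, n = 5) in sham + v, 26.3 ± 27.2 in OVX + v, 42.9 ± 44.6 in OVX + E2 and 40.8 ± 17.5 in OVX + RAL. The log2 fold change against OVX + v was 0.09 ± 1.34 (SE) in sham + v, 0.70 ± 1.38 in OVX + E2 and 0.63 ± 1.03 in OVX + RAL. The sham + v value lay between -0.37 and 0.57 when single libraries were left out, and was below 0 without sham + v replicate 3 or 4 or OVX + v replicate 7 or 8. The OVX + E2 value ranged from 0.11, without OVX + E2 replicate 13, to 1.18, without OVX + v replicate 6, and the OVX + RAL value from 0.31 to 1.11. With limma on log2(CPM + 1) the log2 fold change was 0.66 in sham + v and 2.05 in OVX + RAL.

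*Bglap2* was counted in 3 libraries: sham + v replicate 2 (65.1 CPM), sham + v replicate 5 (18.6 CPM) and OVX + RAL replicate 16 (65.8 CPM). In replicate 5 it stood alone, with *Bglap* at 0, and in replicates 2 and 16 it exceeded *Bglap* (30.4 and 57.1 CPM). All OVX + v and OVX + E2 libraries were at 0. Against the floor of 3 counts per library in OVX + v, the mean was at least 9.27-fold higher in sham + v and at least 7.29-fold higher in OVX + RAL, with adjusted p of 0.363 and 0.402 by edgeR. The OVX + RAL mean rested on replicate 16, without which that group was at 0 as well, and without sham + v replicate 2, which held 124 of the 152 counts of its group, the bound in sham + v was 2.57-fold.

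The sum of *Bglap*, *Bglap2* and *Bglap3* does not depend on which of them a read was assigned to, and was detected in 17 of 20 libraries. It was 7.79, 95.5, 59.3, 43.1 and 18.6 CPM in sham + v, 56.1, 0, 0, 53.5 and 23.0 in OVX + v, 45.8, 9.06, 101.0, 0 and 73.6 in OVX + E2, and 123, 30.7, 64.6, 33.6 and 22.1 in OVX + RAL. Sham + v and OVX + RAL had osteocalcin counts in 5 of 5 libraries and OVX + v in 3, but the libraries of OVX + v that had it lay within the ranges of both groups. The part of library depth in this detection was not tested. The log2 fold change of the sum against OVX + v was 0.76 ± 1.12 (SE) in sham + v, 0.79 ± 1.34 in OVX + E2 and 1.04 ± 0.91 in OVX + RAL, with adjusted p of 1.000 in all 3 by edgeR. All 3 values stayed positive in every alternative fit, and with limma on log2(CPM + 1) they were 1.84, 1.12 and 2.29. They share the OVX + v libraries, of which replicates 7 and 8 were at 0, so their common sign is not independent.

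**Figure D2:**
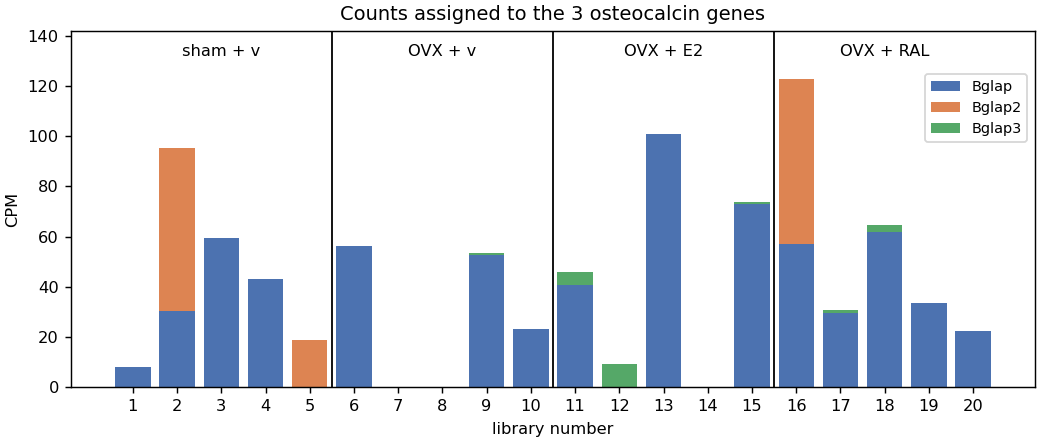
CPM assigned to *Bglap*, *Bglap2* and *Bglap3* (stacked bars) in each of the 20 libraries, in 4 groups of 5. *Bglap* makes up most of the signal, *Bglap2* appears in libraries 2, 5 and 16 only, and libraries 7, 8 and 14 have none of the 3 genes.

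*Ibsp* encodes bone sialoprotein, a nucleator of hydroxyapatite that is largely confined to mineralizing tissue. It had 174, 94.996, 16.6, 130 and 0 CPM in sham + v, 22.4, 22.6, 0, 46.1 and 29.3 in OVX + v, 86.2, 55.1, 0.802, 0 and 71.5 in OVX + E2, and 165, 82.4, 35.8, 21.0 and 37.9 in OVX + RAL. OVX + v had the lowest mean and the narrowest spread, 24.1 CPM ± 16.5 (SD, n = 5), against 83.1 ± 74.1 in sham + v, 42.7 ± 40.2 in OVX + E2 and 68.4 ± 58.5 in OVX + RAL, but each of these groups also had libraries within the range of OVX + v. The log2 fold change against OVX + v was 1.79 ± 0.86 (SE) in sham + v, with an unadjusted p of 0.0375 and an adjusted p of 0.363 by edgeR. In OVX + RAL it was 1.503 ± 0.83, with an unadjusted p of 0.0725 and an adjusted p of 0.541, and in OVX + E2 0.83 ± 1.41, with an adjusted p of 1.000. Over the alternatives the adjusted p ranged from 0.362 to 1.000 in sham + v and from 0.427 to 1.000 in OVX + RAL. The highest values, in sham + v replicate 1 and OVX + RAL replicate 16, came from the libraries with the lowest mitochondrial shares (4.80% and 6.42% of counts) and the lowest sums of supporting cell and otolithic matrix markers (1862 and 1442 CPM). Without them the log2 fold changes were 1.33 in sham + v and 0.88 in OVX + RAL. Over all libraries, DESeq2 gave 1.78 ± 1.41 (SE) in sham + v, 0.83 ± 1.37 in OVX + E2 and 1.57 ± 0.83 in OVX + RAL. The OVX + E2 value was -0.06 with limma on log2(CPM + 1).

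*Dmp1*, an acidic phosphoprotein gene of osteocytes, was counted in sham + v replicate 2 (13.6 CPM) and OVX + E2 replicate 11 (18.6 CPM) and at 0 in the other 18 libraries, the whole of OVX + v and OVX + RAL among them. Against the 3-count floor of OVX + v the mean was at least 1.51-fold higher in sham + v and at least 2.06-fold higher in OVX + E2, on 1 library each, with adjusted p of 0.363 and 0.351 by edgeR. *Mepe*, another osteocyte gene and a regulator of mineralization, had 62.98 and 9.95 CPM in sham + v replicates 2 and 5, 34.0 CPM in OVX + v replicate 8, 2.10 CPM in OVX + E2 replicate 15, and 10.8 and 11.8 CPM in OVX + RAL replicates 16 and 17. The pooled counts of *Mepe*, 3 in OVX + E2 and 60 in OVX + v, gave a ratio of 0.0635 (95% exact interval 0.0127 to 0.195, counting error only), but all 60 were in 1 library. Its log2 fold change was 1.09 ± 2.24 (SE) in sham + v and -0.58 ± 2.58 in OVX + RAL. Without sham + v replicate 2 the first was -1.43, and without OVX + v replicate 8 OVX + v was at 0, so that sham + v was at least 7.96-fold and OVX + RAL at least 2.47-fold higher.

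*Spp1* was the one member measured well in every library. It had 735, 330, 328, 270 and 326 CPM in sham + v, 681, 620, 329, 590 and 248 in OVX + v, 727, 719, 687, 293 and 525 in OVX + E2, and 1515, 610, 348, 579 and 664 in OVX + RAL. In sham + v replicate 1 lay above the other 4, which were between 270 and 330 CPM, and in OVX + RAL replicate 16 lay above the rest. The group means were 398 CPM ± 190 (SD, n = 5) in sham + v, 494 ± 192 in OVX + v, 590 ± 185 in OVX + E2 and 743 ± 448 in OVX + RAL, and neighbours in this order differed by less than their SDs. The log2 fold change against OVX + v was -0.31 ± 0.28 (SE) in sham + v, 0.26 ± 0.28 in OVX + E2 and 0.59 ± 0.26 in OVX + RAL, with adjusted p of 1.000, 1.000 and 0.402 by edgeR. The OVX + RAL value, with an unadjusted p of 0.0247 by edgeR, had a larger error with DESeq2 (0.65 ± 0.46, SE). By edgeR the OVX + RAL value was 0.16 without replicate 16. The sham + v value was -0.66 without sham + v replicate 1. These are the libraries with the highest *Ibsp* and the lowest mitochondrial shares and supporting cell sums given above (the other 18 had shares of 7.16% to 12.3%), and replicate 16 had the highest sum of skeletal muscle markers (314 CPM) and the lowest of hair cell markers (592 CPM). Replicate 1 had the highest macrophage sum (368 CPM) and a neutrophil sum of 141 CPM, exceeded only by OVX + v replicate 9, and replicate 16 an erythroid sum of 2909 CPM, exceeded only by OVX + E2 replicate 15. The part of these in the levels of *Spp1* and *Ibsp* was not tested.

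**Figure D3:**
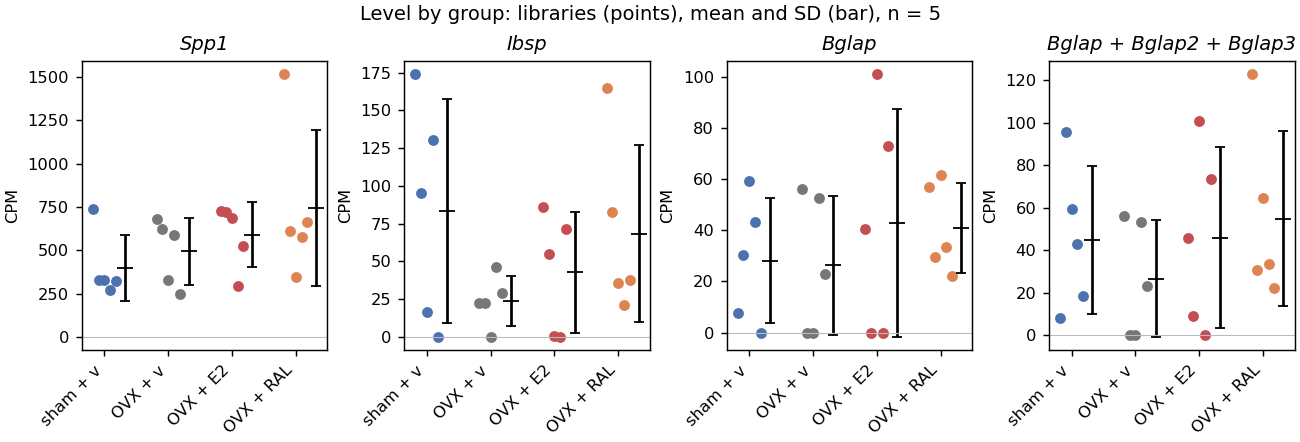
CPM of *Spp1*, *Ibsp*, *Bglap* and the sum of the 3 osteocalcin genes in each library (points) with the mean and SD of each group (bars, n = 5). The groups overlap in each panel, with *Spp1* from 248 to 1515 CPM and with the highest *Ibsp* values, 174 and 165 CPM, in sham + v and OVX + RAL.

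As a list, 5 of the 10 members tested in sham + v were above OVX + v and 5 below, 6 and 3 of the 9 tested in OVX + E2, and 5 and 4 of the 9 tested in OVX + RAL, beside 49.0%, 47.5% and 48.3% of all genes above OVX + v. With limma on log2(CPM + 1) the counts were 7 and 3 in sham + v, 3 and 6 in OVX + E2 and 5 and 4 in OVX + RAL. *Bglap2* in OVX + E2 and *Dmp1* in OVX + RAL had too few counts to be tested. The median log2 fold change of the members tested was 0.03 in sham + v, 0.70 in OVX + E2 and 0.49 in OVX + RAL, beside -0.02, -0.06 and -0.03 over all genes tested, and it was the same with genes at 0 in a group set to their bound. With limma it was 0.52, -0.35 and 0.42, beside -0.15, -0.46 and -0.02 over all genes. The median also moved with single libraries. With genes at 0 in a group set to their bound, it was -0.61 in OVX + E2 without replicate 15, -0.49 in OVX + RAL without replicate 16 and -0.21 without replicate 18, while in sham + v it lay between -0.33, without sham + v replicate 2, and 0.65, without OVX + v replicate 9, and was also below 0 without sham + v replicate 1 or OVX + v replicate 8 or 10.

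Of 38 other genes of bone formation and mineral, 35 had a count in some library, and *Dspp* (dentin sialophosphoprotein), *Ahsg* (fetuin-A) and *Fgf23* (a phosphate-regulating hormone) had none. None passed the adjusted threshold by edgeR among the 30, 31 and 31 tested in sham + v, OVX + E2 and OVX + RAL. At an unadjusted p under 0.05, edgeR gave 3, 3 and 5 of them, beside the 12.5%, 13.9% and 12.1% of all genes. DESeq2 gave 3, 1 and 2 of the 29, 30 and 29 with a p, and limma 1, 1 and 4, beside the shares of all genes given above for these tools. In OVX + RAL 22 were above OVX + v and 9 below, with a median log2 fold change of 0.21, and in sham + v and OVX + E2 14 were above and 16 and 17 below, with medians of -0.07 and -0.15. Over all genes tested, 48.3%, 49.0% and 47.5% were above OVX + v in OVX + RAL, sham + v and OVX + E2, with medians of -0.03, -0.02 and -0.06. With limma on log2(CPM + 1) the counts of the list above and below were 20 and 11 in OVX + RAL, 14 and 16 in sham + v, and 11 and 20 in OVX + E2, with medians of 0.33, -0.20 and -0.47, beside -0.02, -0.15 and -0.46 over all genes. The 5 most abundant were read in 20 of 20 libraries: *Sparc* (osteonectin, a collagen-binding matrix protein) at 1502 CPM, *Col1a2* (a chain of type I collagen) at 211, *Mgp* (matrix Gla protein, an inhibitor of calcification) at 205, *Bgn* (biglycan, a matrix proteoglycan) at 125 and *Ank* (a pyrophosphate exporter) at 114. Type I collagen and osteonectin are made by many connective tissue cells besides osteoblasts.

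*Mgp* was the only one of these 5 with an unadjusted p under 0.05. It had a log2 fold change of 0.97 ± 0.45 (SE) in OVX + E2 and 0.91 ± 0.36 in OVX + RAL, with adjusted p of 0.351 and 0.402 by edgeR, and 0.24 ± 0.43 in sham + v. Its mean was 136 CPM in OVX + v, 266 in OVX + E2, 257 in OVX + RAL and 160 in sham + v, and its direction was the same in every alternative fit of all 3 comparisons. The values of *Sparc* were 0.00 ± 0.18 in sham + v, -0.15 ± 0.18 in OVX + E2 and 0.13 ± 0.19 in OVX + RAL, the narrowest errors of the genes described here. The other genes under an unadjusted p of 0.05 were *Msx2*, *Lox* and *Mmp13* in sham + v, *Msx2* and *Mmp13* in OVX + E2, and *Col1a1*, *Ogn*, *Ifitm5* and *Postn* in OVX + RAL, and were named after their values were seen.

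**Figure D4:**
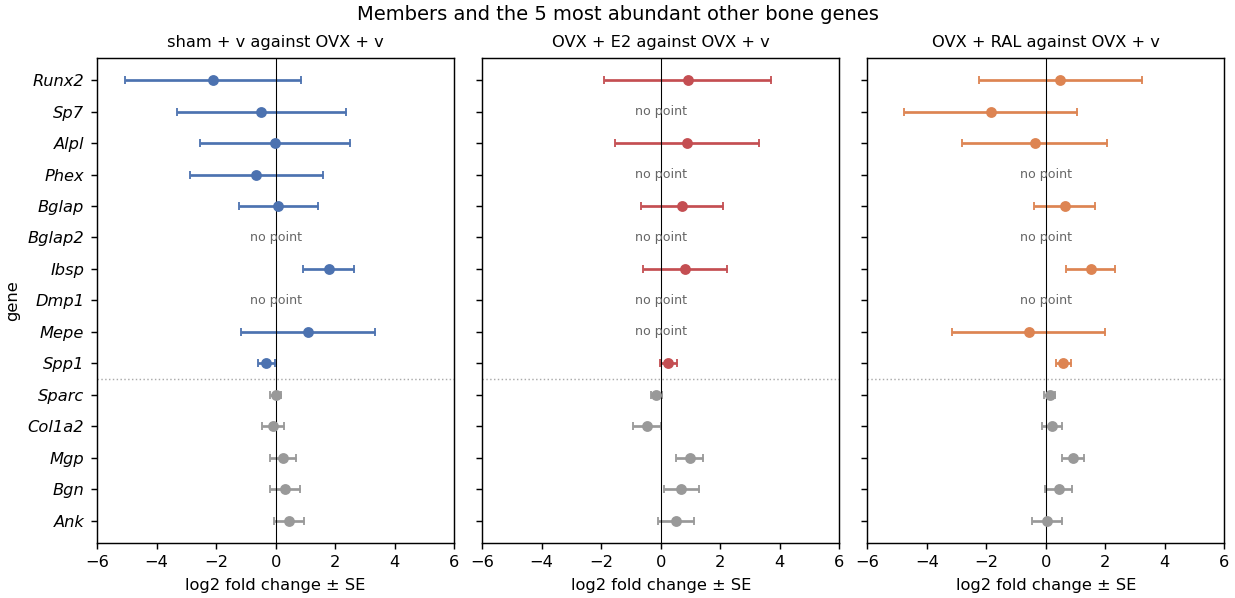
Log2 fold change against OVX + v with its SE (edgeR) for the 10 members and, below the dotted line, the 5 most abundant other bone genes, in the 3 comparisons. Genes marked "no point" were at 0 in a group, had 1 to 3 counts in it or were not tested; errors of about 2 to 3 for the sparse members stand against 0.26 to 0.28 for *Spp1*.

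Markers of other cells were summed in the same libraries. The 9 members other than *Spp1* together ranged from 29.2 to 295 CPM in sham + v (median 188), from 35.1 to 149 in OVX + v (median 87.8), from 0 to 249.7 in OVX + E2 (median 103) and from 61.9 to 314 in OVX + RAL (median 124). Of 8 osteoclast markers 4 had a count, and *Oscar*, *Dcstamp*, *Atp6v0d2* and *Calcr* were at 0 in all libraries. The osteoclast sum was 0 to 96.0 CPM in sham + v, 0 to 22.3 in OVX + v, 0 to 21.7 in OVX + E2, where only replicate 15 was above 0, and 4.72 to 74.0 in OVX + RAL. The sum of 9 marrow neutrophil markers, of which 6 had a count and *Elane*, *Mpo* and *Ctsg* none, was 0 to 141 CPM in sham + v, 0 to 203 in OVX + v, 0 to 0.890 in OVX + E2 and 0 to 62.8 in OVX + RAL. The part of these other cells in the levels of the members was not tested.

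Other lists were present in all groups. Of 12 chondrocyte markers 11 had a count, with sums of 930 to 1645 CPM. The highest were *Col9a2* (mean 299 CPM), *Cnmd* (271), *Col11a2* (214) and *Chad* (160). *Acan* was detected in 7 libraries. *Col10a1*, the collagen of hypertrophic cartilage, *Matn3* and *Snorc* reached 3 counts in 1 library each, and *Matn1* was at 0. The 5 erythroid markers summed to 363 to 3837 CPM, the 7 macrophage markers to 39.2 to 368, the 5 skeletal muscle markers to 0 to 314, the 4 Schwann cell markers to 1415 to 3786, the 10 hair cell markers to 592 to 1803 and the 7 markers of supporting cells and otolithic matrix to 1442 to 4648.

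**Figure D5:**
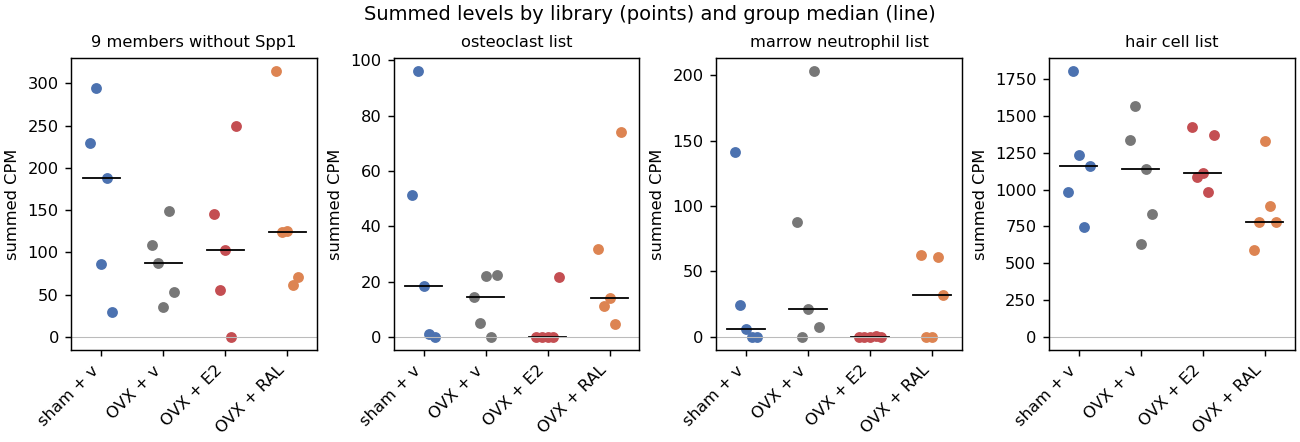
Summed CPM in each library (points) and group median (line) for the 9 members other than *Spp1*, the osteoclast list, the marrow neutrophil list and the hair cell list. The osteoclast and neutrophil sums are at or near 0 in most OVX + E2 libraries and in some libraries of other groups. The 9 members range from 0 to 249.7 CPM in OVX + E2.

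Over the 20 libraries, the genes whose CPM followed the mean rank of the members most closely were *Hmgxb4* (Spearman rho 0.77), *Ankrd24* (0.76), *Tmem150b* (0.75), *Rps6ka4* (0.75) and *Nalcn* (0.74), out of 10839 genes with at least 200 counts and on none of the lists. These are the highest of many values over points that also differ in depth, and are given as a description.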

How the data were processed

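RNA of the utricle was measured in 20 libraries, 5 in each of 4 groups, grouped by their labels. As the methods describe, the authors processed the reads in CLC Genomics Workbench: adaptor, poly(A) and poor-quality 3′ sequence and 12 nucleotides at the start were cut, reads shorter than 20 nucleotides were dropped, and the rest were mapped to GRCm39.105 (default settings). Its version and the handling of reads matching several genes are not given in the sources used here. The deposited values used are raw counts of reads per gene. The authors' deposited normalized values, fold changes and p-values were not used. Of the 3 tables in the estradiol file the first was used, the 5 OVX + v libraries were identical in all tables, and 0 columns lay outside the series.

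CPM was computed from each library's total (1123053 to 2081747 counts). Each group was compared with OVX + v with glmQLFit and glmQLFTest of edgeR 4.0.16 (R 4.3.3) on their 10 libraries, with total counts as library size, for genes with at least 10 counts in the fit, and p-values were adjusted by Benjamini-Hochberg over all genes (threshold 0.05). SE is the log2 fold change over the square root of F. Alternatives were TMM factors, DESeq2 1.42.0, no filter, the default filter, limma 3.58.1 on log2(CPM + 1), a joint fit of the 4 groups, and leaving out single libraries. Folds against a group at 0 use a floor of 3 counts per library. Reads had no molecular identifiers. Floors and intervals therefore take each read as an independent count, cover counting error only and can be too narrow. Sequences came from GRCm39 with the GENCODE vM39 annotation. Python 3.11.15 with scipy and matplotlib was used for intervals and figures.

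The members, the gene lists and the marker lists were chosen with earlier results of these data known. All members are named; of the other bone genes, the 5 with the highest mean CPM and any past the threshold are named, and further names were chosen after their values were seen.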

Additional observations from a re-analysis of the deposited data

Results flagged for a closer look

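Within groups of 5, a library was marked when its gap to the nearest library exceeded 0.71 of the group's range, the 95% critical value of Dixon's test. The 10 members, the osteocalcin sum and the sum of the 9 members other than *Spp1* gave 43 groups with any spread, of which 19 (44.2%) were marked. Chance marks about 1 in 20 groups of normally distributed values, but over all 14870 genes with at least 10 counts in the 20 libraries 28.5% of the groups with any spread were marked. In 11 of them the library was the only one of its group with a count, for which the ratio is 1 by construction. These were *Bglap2* in OVX + RAL replicate 16 (65.8 CPM), *Sp7* in OVX + v replicate 9 (27.2 CPM) and OVX + RAL replicate 19 (7.34 CPM), *Runx2* in OVX + E2 replicate 15 (33.7 CPM), *Alpl* in the same library (69.4 CPM), *Dmp1* in sham + v replicate 2 (13.6 CPM) and OVX + E2 replicate 11 (18.6 CPM), *Phex* in OVX + E2 replicate 13 (0.802 CPM) and OVX + RAL replicate 18 (0.587 CPM), and *Mepe* in OVX + v replicate 8 (34.0 CPM) and OVX + E2 replicate 15 (2.10 CPM).

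The other 8 stood above libraries that also had counts. Sham + v replicate 2 was marked for *Bglap2* (65.1 CPM) and *Mepe* (62.98 CPM), and OVX + v replicates 6 and 7 for *Runx2* (14.95 CPM) and *Phex* (51.4 CPM). OVX + RAL replicate 18 was marked for *Runx2* (24.7 CPM). For *Spp1* the marked libraries were sham + v replicate 1 (735 CPM) and OVX + RAL replicate 16 (1515 CPM), and the latter was also marked for the sum of the other 9 members (314 CPM).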

How the results depend on the processing

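No member and no other bone gene passed the threshold in any alternative of the 3 comparisons. Of 713 values of single genes and the osteocalcin sum under the alternatives, 670 kept their direction and their side of the threshold. With limma on log2(CPM + 1) the direction turned for *Sp7* (0.38) and *Phex* (0.081) in sham + v, for *Runx2* (-0.35), *Alpl* (-0.98) and *Ibsp* (-0.060) in OVX + E2, and for *Runx2* (-0.31) and *Mepe* (0.42) in OVX + RAL; *Sparc* in sham + v was -0.042 with TMM and -0.0037 with DESeq2. With single libraries left out, direction turned within these ranges, whose ends beyond 4 in size are fits against a group with at most 1 count and no bounds. In sham + v they were -0.37 to 0.57 for *Bglap*, -1.63 to 5.75 for *Sp7*, -2.82 to 0.10 for *Runx2*, -1.18 to 0.85 for *Alpl*, -1.08 to 1.22 for *Phex*, -1.43 to 7.67 for *Mepe*, -0.060 to 0.076 for *Sparc* and -0.31 to 0.21 for *Col1a2*. In OVX + E2 they were -5.46 to 3.08 for *Runx2*, -6.53 to 1.74 for *Alpl* and -0.25 to 0.027 for *Sparc*. In OVX + RAL they were -6.30 to 4.44 for *Sp7*, -4.20 to 2.69 for *Runx2*, -1.14 to 0.49 for *Alpl*, -1.31 to 6.04 for *Mepe*, -0.12 to 0.51 for *Col1a2* and -0.22 to 0.36 for *Ank*. With single libraries left out, the osteocalcin sum ranged from 0.28 to 1.22, 0.28 to 1.26 and 0.51 to 1.51 in the comparisons of sham + v, OVX + E2 and OVX + RAL. With limma these values were 1.84, 1.12 and 2.29. TMM moved the median of all genes in OVX + E2 from -0.06 to -0.17, and limma to -0.46. The default filter tested only 4, 3 and 3 members, and DESeq2 gave no adjusted p for 3, 5 and 3. A gene under 1.44 to 2.67 CPM, by library, could not be told from 0. No paired analysis was possible because the library numbers are not shared between groups.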
